A study of Homo sapiens with 4 samples.

Results

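The transcription factor genes MYB, MYBL1 and MYBL2, the MYC genes MYC, MYCL1 and MYCN, and MAX, the shared partner of the MYC proteins, were examined in PC3 cells, an established human prostate cancer line, after knockdown of ALKBH3, a demethylase that removes alkyl groups from single-stranded DNA and RNA. The array annotation gave transcript accessions without symbols, so every probe whose accession belongs to 1 of these 7 genes in RefSeq was taken, which gave 11 of 34127 probes and 7 of 19102 named genes. The set was chosen by the signal of MYB, which had one of the largest falls between the shRNAs on these arrays, so the difference of MYB between the shRNAs is described here and carries no test. All cells carried a lentivirus with an shRNA, either against ALKBH3 or, as control shRNA, against GFP, and RNA was taken after puromycin selection for 48 h or 96 h. Which ALKBH3 shRNA it was is not in the labels. RNA of each shRNA and time point was hybridised to 1 single-colour Agilent array, 4 arrays in all, so each shRNA has 2 arrays (n = 2) that differ in time point, and whether they came from separate infections is not given. Their spread then includes the time difference, and p-values measure the spread between these arrays. The arrays of a time point shared a slide, so slide and time point cannot be told apart, while each comparison of the shRNAs was made within a slide.

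The MYB proteins bind DNA through a conserved repeat domain and activate transcription. MYB is known as the regulator of immature blood cells and as an oncogene in leukaemia and some carcinomas, MYBL1 acts mainly in male meiosis, and MYBL2, itself an E2F target, joins the MuvB core in S phase and switches on the genes of mitosis together with FOXM1. The MYC proteins drive ribosome production, metabolism and cell cycle entry as dimers with MAX, which also pairs with the MXD, MNT and MGA repressors.

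Signals are given as log2 intensity relative to the 75th percentile of the array, which lay at an intensity of 2150 to 2394. Of the spots not used as controls, 180 to 379 on an array were removed as poor and 0 were saturated, and 67.0% to 70.9% of probes were well above background. Both ALKBH3 probes were lower with ALKBH3 shRNA on the log2 scale, by -2.03 and -1.74 at 48 h and by -2.06 and -1.51 at 96 h. Of the epithelial markers EPCAM, KRT8, KRT18, CDH1 and CLDN4, 5 of 5 were well above background. The log2 of their summed signal was between 6.70 and 6.88. For 6 of 6 leukocyte and blood progenitor markers the log2 of the summed signal was between -1.90 and -1.82. It was between -1.38 and -0.216 for the stromal markers and between -2.68 and -2.29 for the endothelial markers. KLK3, the prostate-specific antigen, was not well above background on any array. Some markers were higher with ALKBH3 shRNA: COL1A1 and DCN, the 2 of 4 stromal markers that were tested, differed by 0.71 and 0.65. DCN was dim, with intensities of 36.9 to 65.8, and only 1 of its 2 probes was well above background on any array. EPCAM and CDH1 among the epithelial markers differed by 0.98 and 0.74, and CDH1 fell by 1.33 from 48 h to 96 h. The epithelial markers KRT8, KRT18 and CLDN4 differed between the shRNAs by 0.03, -0.07 and 0.13. Among the 3 endothelial markers PECAM1 was lower, by -0.59, while CDH5 differed by -0.20 and VWF by 0.29. With time point as a block EPCAM and DCN rose (limma adjusted p = 0.0300 and 0.0481), when 2.29% of genes were called higher. Their part in the results below was not tested, and in RNA from whole cultures fewer cells of a type and less RNA per cell cannot be told apart.

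Among the 11 probes, 9 were well above background on all 4 arrays and could be tested. They stood for 6 of the 7 genes, with 1 probe for MYB, MYBL2, MYC and MYCL1, 2 for MYBL1 and 3 for MAX. The MYCN probe and the MYCL1 probe for NM_005376 were well above background on 0 arrays. MYCN, the gene amplified in neuroblastoma, had intensities of 4.51 (control shRNA) and 5.01 (ALKBH3 shRNA) at 48 h and of 6.70 and 6.74 at 96 h, each with an error from the image software nearly as large as the value. The MYCL1 probe for NM_005376 had 24.6, 24.9, 29.0 and 28.0 in the same order. Neither gave a level that can be compared between the shRNAs.

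MYB was the member with the large difference. Its probe (A_23_P31073, for NM_005375) had an intensity of 1437 ± 144 under control shRNA and 451 ± 45.3 under ALKBH3 shRNA at 48 h, where ± is the software's error of the spot. At 96 h it had 2825 ± 283 with control shRNA and 579 ± 58.1 with ALKBH3 shRNA. On the log2 scale relative to the percentile these were -0.58, -2.34, 0.27 and -2.05. Both ALKBH3 shRNA arrays lay below both control shRNA arrays, and the highest value was that of control shRNA at 96 h.

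The MYB signal with ALKBH3 shRNA was 3.39-fold lower at 48 h (log2 difference -1.76), which leaves 29.5% of the control signal, and 5.0-fold lower at 96 h (-2.32), which leaves 20.0%. The mean log2 difference was -2.04 ± 0.395 (SD of the differences at the 2 time points). These values chose the gene, and among 14556 genes tested, each by its brightest tested probe, MYB stood at place 3 from the largest fall. CRABP1 (-2.23) and HLF (-2.13) were just ahead of it, and FAM20A (-1.74) and ALKBH3 (-1.63) just behind. By probes MYB stood at place 5 of 23244, and the other ALKBH3 probe, with -2.03 at 48 h and -2.06 at 96 h, was ahead of it. For the cutoffs used here, a 2-fold change and an unadjusted p under 0.05 in limma, 0.232% of 23244 probes were called lower and 0.886% higher. By genes these shares were 0.24% and 1.06%.

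**Figure D1:**
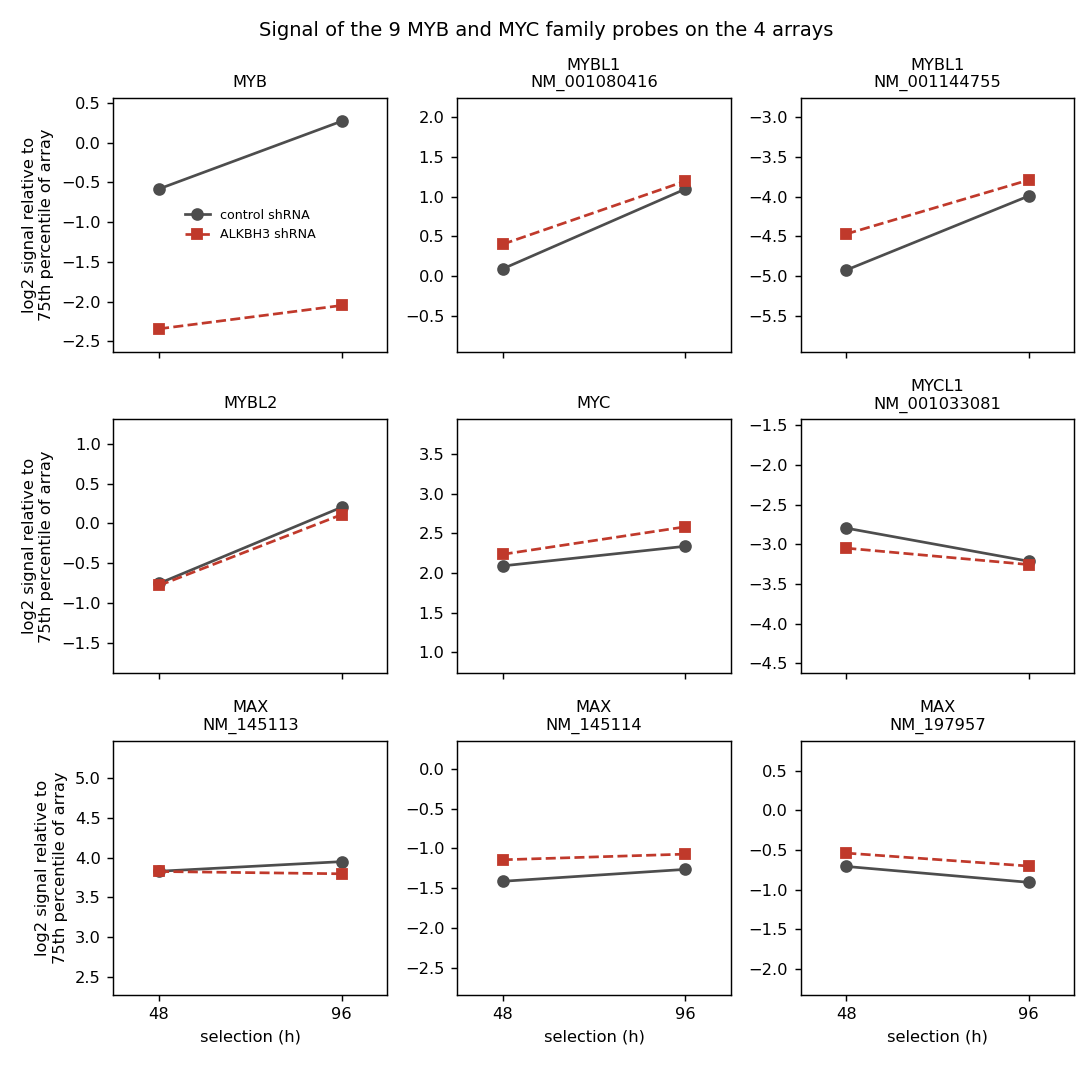
Log2 signal relative to the 75th percentile of the array (y axis) against hours of selection (x axis) for the 9 member probes that passed detection on all 4 arrays. Grey circles are control shRNA and red squares ALKBH3 shRNA, each point is 1 array, and every panel spans the same range of log2 units around its own centre. In the MYB panel ALKBH3 shRNA differs from control shRNA by -1.76 at 48 h and -2.32 at 96 h, while the MYBL2 lines nearly coincide.

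The relatives of MYB follow. MYBL1, the family member of male meiosis, had 2 probes. The probe for NM_001080416 had log2 signals of 0.09 under control shRNA and 0.40 under ALKBH3 shRNA at 48 h, against 1.10 and 1.20 at 96 h. The shRNA groups overlapped, with both high values at 96 h. The mean difference was 0.20 ± 0.437 (SE, limma adjusted p = 0.977), with a 95% interval from -0.95 to 1.36. The dim probe for NM_001144755 had -4.92, -4.47, -3.99 and -3.79 in the same order, again with both high values at 96 h and overlapping groups. Its difference was 0.33 ± 0.397 (SE, limma adjusted p = 0.936), with the same sign as that of the brighter probe.

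MYBL2, the family member of dividing cells, had -0.75 under control shRNA and -0.78 under ALKBH3 shRNA at 48 h, against 0.20 and 0.11 at 96 h. Within each time point the shRNAs were close, and the values at 96 h were the high ones. The log2 difference was -0.03 at 48 h and -0.09 at 96 h, and the mean was -0.06 ± 0.446 (SE, limma adjusted p = 0.992). Its 95% interval, from -1.24 to 1.12, is wide because the spread between time points enters it. When time point was a replicate block, the interval ran from -0.28 to 0.16 (limma adjusted p = 0.728).

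RefSeq promoters (build GRCh38.p14, 250 bases before to 50 after each start) were at hand for 5 of the 7 genes, MYB, MYBL2, MYCN, MYCL1 and MAX, the last with 2 starts. MYB and MYBL2, which parted with ALKBH3 shRNA, are shown because both windows hold the letters TTGGCGGGA, an E2F-type site, within 60 bases of the start. They are in capitals in the 120 bases directly before each start, with MYB at chr6:135181188-135181307 and MYBL2 at chr20:43666994-43667113, both on the plus strand:
MYB: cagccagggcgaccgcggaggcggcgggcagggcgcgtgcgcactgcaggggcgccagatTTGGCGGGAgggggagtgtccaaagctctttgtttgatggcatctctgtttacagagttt
MYBL2: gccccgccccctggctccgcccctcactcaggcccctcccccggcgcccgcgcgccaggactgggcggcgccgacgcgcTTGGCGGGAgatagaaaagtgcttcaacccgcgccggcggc

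The capitals begin 60 bases before the start in MYB and 41 bases before it in MYBL2. Searched on both strands, these letters were in 0.31% of 35116 RefSeq promoters of the same length, and in no other member promoter. The E-box CACGTG, the sequence that dimers of MYC and MAX prefer, was in the MYBL2 promoter alone among the members, 243 bases before the start, and in 7.26% of all promoters. The E-box does not overlap the E2F-type letters. The MYB recognition letters CAACNG were in none of the member promoters and in 32.9% of all promoters. A second form, TAACNG, was in that of MYCN, 32 bases before the start, and in 20.8% of all promoters. These forms do not overlap any other motif in the member promoters. A match is a description of these letters and not a site in use.

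MYC, the proto-oncogene of the family, was measured by 10 spots on each array. Its intensity was 9158 under control shRNA and 10780 under ALKBH3 shRNA at 48 h, against 11830 and 14360 at 96 h. The log2 signals were 2.09 ± 0.0703, 2.24 ± 0.0903, 2.34 ± 0.0767 and 2.58 ± 0.0982 in the same order, where ± is the SD over the spots. The signal was higher with ALKBH3 shRNA within each time point, by 0.15 at 48 h and 0.24 at 96 h, but the groups overlapped. The mean difference of 0.20 ± 0.181 (SE) did not pass the test (limma adjusted p = 0.904, 95% interval -0.28 to 0.67).

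MYCL1, a MYC paralog first found amplified in small cell lung cancer, had -2.80, -3.05, -3.21 and -3.26 at its probe for NM_001033081. The highest value was control shRNA at 48 h, and the groups overlapped. The differences of -0.25 at 48 h and -0.04 at 96 h gave a mean of -0.15 ± 0.191 (SE, limma adjusted p = 0.946).

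MAX had 3 probes, which stand for different transcripts and disagreed in sign. The probe for NM_145113 had 3.83 under control shRNA and 3.83 under ALKBH3 shRNA at 48 h, against 3.95 and 3.80 at 96 h. The probe for NM_145114 had -1.41, -1.14, -1.26 and -1.07 in this order, higher with ALKBH3 shRNA at each time point. The probe for NM_197957 had -0.71, -0.54, -0.91 and -0.70, also higher with ALKBH3 shRNA at each time point. The groups did not overlap at any of the 3 probes, with ALKBH3 shRNA below at the first and above at the other 2. At the first probe the difference at 48 h was only -0.003. Before centring, its intensity there was higher with ALKBH3 shRNA (32440) than with control shRNA (30570). The mean differences were -0.08 ± 0.122, 0.23 ± 0.127 and 0.19 ± 0.143 (SE, limma adjusted p = 0.961, 0.770 and 0.865), and none passed the test. MYB, chosen by its fall, is not counted here, and among the other tested member probes only the 3 of MAX had groups that did not overlap. Of 23244 probes, 18.6% had both ALKBH3 shRNA arrays below and 17.4% both above, so such a pattern is frequent on these arrays.

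**Figure D2:**
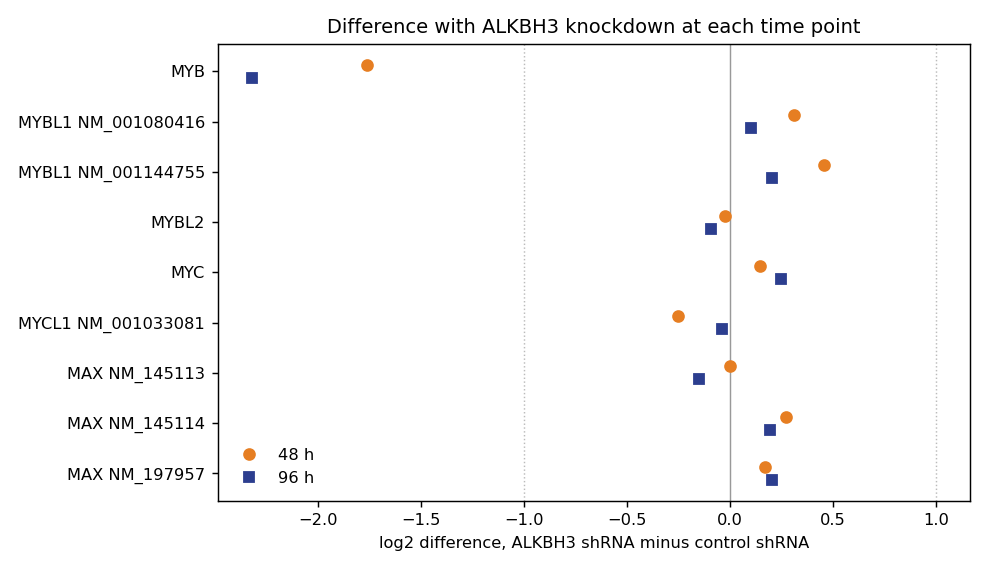
Log2 difference of ALKBH3 shRNA minus control shRNA on 1 array pair (x axis) for each of the 9 tested member probes (y axis), at 48 h as orange circles and at 96 h as blue squares, with dotted lines at a 2-fold change. MYB lies at -1.76 and -2.32, and the other 8 probes lie between -0.25 and 0.45.

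Other than MYB, 0 of the 8 member probes passed the cutoffs between the shRNAs, and their limma adjusted p-values ran from 0.770 to 0.992. After adjustment no probe of the array passed (0 calls, smallest limma adjusted p = 0.0917, with 1780 probes at an unadjusted p under 0.05), and the methods' t-test passed 1632 probes unadjusted and 0 adjusted. A replicate block for the time point gave 458 probes higher and 227 lower at an adjusted p under 0.05, and the 8 probes still had limma adjusted p-values between 0.163 and 0.728.

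The comparison of 96 h with 48 h is not the one that the rule for the genes used. MYB was higher at 96 h with control shRNA by 0.85 on the log2 scale and with ALKBH3 shRNA by 0.29. The difference between these rises, -0.56, rests on 4 arrays and was not tested. The mean of 0.57 ± 0.978 (SE), whose error here includes the shRNA, did not pass the test (limma adjusted p = 0.779), nor did it with shRNA as a block (limma adjusted p = 0.0835).

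MYBL1 and MYBL2 were higher at 96 h with each shRNA. MYBL2 was higher by 0.96 with control shRNA and by 0.89 with ALKBH3 shRNA, a mean of 0.93 ± 0.098 (SE). The MYBL1 probe for NM_001080416 was higher by 1.004 and 0.79, a mean of 0.90 ± 0.143 (SE). The MYBL1 probe for NM_001144755 was higher by 0.93 and 0.68, a mean of 0.81 ± 0.190 (SE). Both 96 h arrays lay above both 48 h arrays at these probes and at the MYC probe, 4 of the 9, and both lay below at the MYCL1 probe. Such patterns are frequent here, since 28.6% of all tested probes had both 96 h arrays above and 24.4% both below. The mean differences of MYBL2 and of the MYBL1 probes fell short of a 2-fold change, and their limma adjusted p-values were 0.123, 0.123 and 0.157.

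With shRNA as a block, MYBL2 and both MYBL1 probes rose from 48 h to 96 h (limma adjusted p = 0.0259, 0.026 and 0.0277), when 5.49% of probes were called higher. MYC was higher at 96 h by 0.25 with control shRNA and 0.35 with ALKBH3 shRNA, and MYCL1 was lower by -0.42 and -0.21, with limma adjusted p-values of 0.0943 and 0.106 under the block. The MAX probes differed by -0.20 to 0.15 within either shRNA. At the 2-fold cutoff 0 of the 9 member probes were called in this comparison, against 0.327% of all probes called higher and 0.666% lower. That split of 76 probes higher and 155 lower became 52 and 205 after quantile normalization and 109 and 135 after centring on the median.

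The partners and known targets of these factors were taken as lists from textbook knowledge, and a gene stood by its brightest tested probe. In the comparison of the shRNAs 0 genes of any of the 8 lists passed the cutoffs, and the median log2 difference over all 14556 genes was -0.003, with 49.4% above 0. The repressors and relatives that compete for MAX or its partners (MXD1, MXI1, MXD3, MXD4, MNT, MGA, MLX, MLXIP and MLXIPL) had a median of -0.13, with 0 of 9 above 0. The range ran from -0.28 for MXD3, an S phase member, to -0.02 for MLXIPL, a glucose-responsive factor. The count above 0 was up to 2 of 9 after normexp correction or with the authors' normalized values, and 3 of 9 without control shRNA at 48 h or without ALKBH3 shRNA at 96 h.

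Among the 18 tested cofactors and stability regulators of MYC the median was 0.01, with 10 above 0. HUWE1, a ubiquitin ligase that acts on MYC, had the lowest value (-0.31, limma adjusted p = 0.751) and USP28, the deubiquitinase that protects it, the highest (0.33, limma adjusted p = 0.854). KAT2A and CIP2A were not tested. The 30 tested genes that MYC activates, in ribosome production, nucleotide synthesis and metabolism, had a median of 0.003, with 16 above 0. Leaving out 1 array took this count from 5 to 24 and the median from -0.12 to 0.15. In this list TFRC, the transferrin receptor, had -0.56 (limma adjusted p = 0.572) and POLR1B, a subunit of RNA polymerase I, 0.21 (limma adjusted p = 0.823). The 7 tested genes that MYC represses had a median of 0.04, from -0.14 for NDRG1 to 0.40 for CDKN2B, which encodes a CDK inhibitor.

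For MYB, the 12 partners and kinases had a median of -0.06, with 4 above 0. HIPK2, a kinase known to promote the degradation of the MYB protein, had a log2 signal of 0.65 under control shRNA and -0.07 under ALKBH3 shRNA at 48 h, against 0.62 and 0.06 at 96 h. Both ALKBH3 shRNA values were the low ones, as at 18.6% of all tested probes. The difference of -0.64 ± 0.123 (SE) did not pass after adjustment (limma adjusted p = 0.389), but HIPK2 fell when time point was a replicate block (limma adjusted p = 0.0481), when 1.01% of genes were called lower. At the other end was PPID, a cyclophilin that binds MYB, with 0.30 (limma adjusted p = 0.919).

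Of 18 listed MYB targets, mostly genes of blood cells, 16 had a named probe and 9 were tested. KIT, CD34, MPO, RAG2, LYZ and LMO2 were among those not tested. The 9 had a median of 0.12 with 6 above 0, against a median of -0.003 over all genes. In limma 3 of the 9 had an unadjusted p under 0.05, in both directions, against 8.15% of all genes. The part of MYB in these values was not tested. CXCR4, a chemokine receptor, had -3.04, -2.42, -3.34 and -2.81, a difference of 0.57 ± 0.197 (SE, limma adjusted p = 0.617). Its ALKBH3 shRNA values were the high ones and did not overlap control shRNA. ANPEP, an aminopeptidase and myeloid marker, had -0.18, -0.90, 0.14 and -0.38, a difference of -0.62 ± 0.230 (SE, limma adjusted p = 0.644). Here the ALKBH3 shRNA values were the low ones, again without overlap. Such patterns are frequent here, with 17.4% of all tested probes having both ALKBH3 shRNA arrays above and 18.6% both below.

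For MYBL2, the 15 MuvB and DREAM partners had a median of -0.004 with 7 above 0, from -0.53 for DYRK1A, the kinase that promotes DREAM assembly (limma adjusted p = 0.546), to 0.40 for E2F5, a repressive E2F (limma adjusted p = 0.562). The 16 tested mitotic genes that MYBL2 and FOXM1 activate had a median of 0.03 with 10 above 0. The lowest value was that of MKI67, the Ki-67 proliferation antigen (-0.33, limma adjusted p = 0.928), and the highest that of CDC20, an activator of the anaphase-promoting complex (0.18, limma adjusted p = 0.973).

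**Figure D3:**
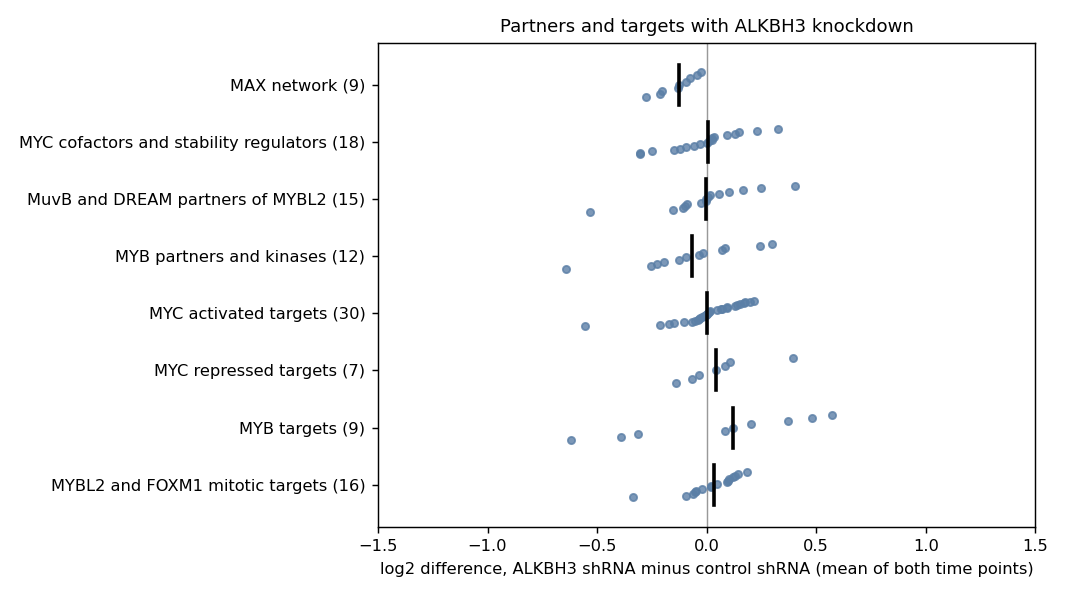
Log2 difference of ALKBH3 shRNA minus control shRNA, as the mean of both time points (x axis), for every tested gene of the 8 lists of partners and targets (y axis, number tested in brackets). Points are genes and black bars list medians, which lie between -0.13 and 0.12, and no gene reaches a 2-fold change.

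From 48 h to 96 h all 16 tested mitotic genes had a higher signal, by 0.42 to 0.84 on the log2 scale, with a median of 0.69, or 0.67 under control shRNA and 0.69 under ALKBH3 shRNA. The median over 14559 genes was -0.01, and 48.7% lay above 0. At an unadjusted p under 0.05 there were 16 of 16, against 18.8% of all genes, and with shRNA as a block 15 of the 16 rose at a limma adjusted p under 0.05, against 5.08% of all genes called higher. None reached a 2-fold change, and over all genes 0.254% were called higher and 0.81% lower by that cutoff. The largest values were those of the kinesin KIF20A (0.84) and the centromere protein CENPF (0.84), and topoisomerase TOP2A (0.81) was close. The count of 16 of 16 above 0 held under every scaling and background correction tried, with medians from 0.65 to 0.75.

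The MuvB and DREAM partners had a median of 0.22 over time, with 12 of 15 above 0. With shRNA as a block 4 of the 15 rose, CCNA2 (0.96), FOXM1 (0.74), RBL1 (0.68) and CDK2 (0.67), with limma adjusted p-values between 0.0259 and 0.0297. The genes that MYC activates had a median of 0.25 with 28 of 30 above 0. Under the block 2 of the 30 rose, CDC25A (0.81) and BOP1 (0.50), a share near the 5.08% of all genes. The MYB targets had a median of 0.07 over 10 genes with 6 above 0, and CCNB1, which is also in the mitotic list, and GATA3 rose under the block (limma adjusted p = 0.0318 and 0.0387). The MAX network had a median of 0.04 with 5 of 9 above 0, and under the block MXD3 rose by 0.50 and MXD4, a repressor of resting and differentiating cells, fell by 0.63 (limma adjusted p = 0.0370 and 0.0306). Of the other lists, AURKA and USP28 among the MYC cofactors and PPID among the MYB partners rose under the block, while the kinase PIM1 among the MYB partners and CDKN2B among the genes that MYC represses fell. Over all genes 6.18% were called lower under the block.

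**Figure D4:**
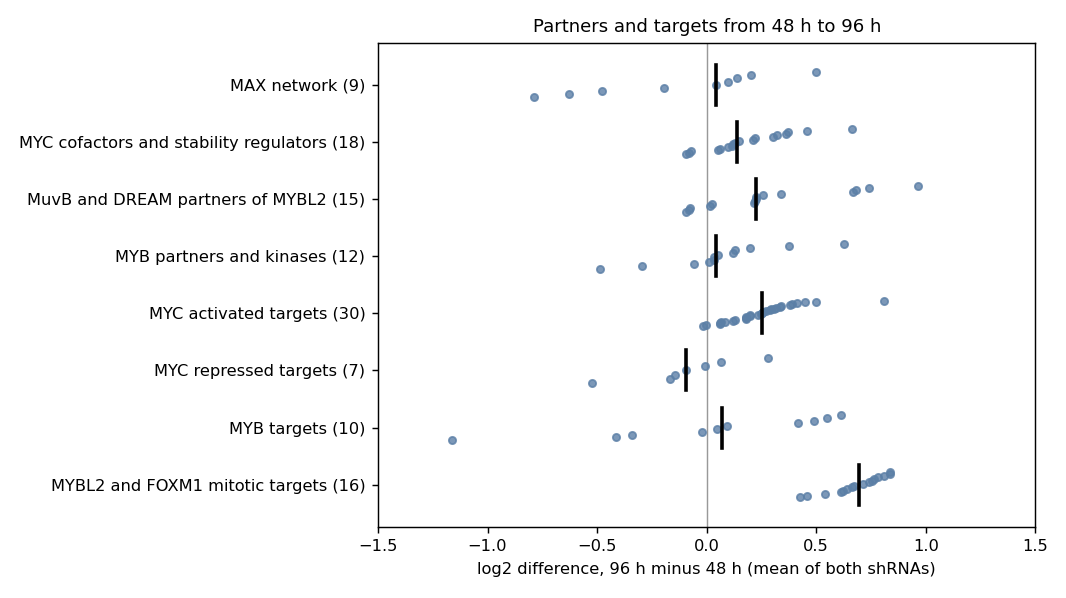
Log2 difference of 96 h minus 48 h, as the mean of both shRNAs (x axis), for every tested gene of the same 8 lists (y axis, number tested in brackets). Points are genes and black bars list medians. The 16 mitotic genes lie between 0.42 and 0.84, clear of 0, and the other medians lie between -0.09 and 0.25.

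The genes whose profile over the 4 arrays was most like that of MYB were found by the Euclidean distance between mean-centred log2 signals among 14020 genes well above background on all arrays, for which the median distance was 2.15. Among the 5 nearest were SLC38A11 (0.794), ALKBH3 itself (0.838), GABBR2 (0.848), a GABA receptor subunit, and LONRF2 (0.967). The log2 difference of SLC38A11 was -1.20 at 48 h and -1.94 at 96 h, and so was larger at 96 h, as for MYB. For the brighter ALKBH3 probe (-1.74 and -1.51), GABBR2 (-1.39 and -1.31) and LONRF2 (-1.74 and -1.08) the difference was larger at 48 h. The other ALKBH3 probe had nearly the same difference at 48 h (-2.03) and at 96 h (-2.06). The likeness was computed over 4 arrays that also chose MYB, and it is a description of these values.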

How the data were processed

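Total RNA of 4 PC3 samples was amplified, labelled with Cy3 and hybridised to Agilent arrays. The authors deposited spot intensities of each array, which Agilent Feature Extraction 10.7.3.1 (per the file headers) had made by subtracting background on that array, with no normalization between arrays. They also deposited log2 values normalized between arrays with limma, which served as an alternative.

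Spots marked as not uniform or as outliers were removed. Log2 intensities were centred on the 75th percentile of each array, then averaged over the spots of a probe. Detection of a probe on an array meant that at least 0.5 of its spots were well above background, and detection on both arrays of 1 shRNA, or of 1 time point for the time comparison, was needed for a test. RefSeq gene names (GRCh38.p14) were found by accession for 24910 of 34127 probes.

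lmFit and eBayes of limma 3.58.1 (R 4.3.3, with the data.table package, 1.17.8) were used without covariates, with p-values adjusted by Benjamini-Hochberg over all probes and 95% intervals from the fit. A call needs a log2 difference of 1 and an unadjusted p under 0.05. The steps were tested on simulated data. The number of arrays limits the precision. The genes and lists were chosen with earlier results of these data known.

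The text names all member probes, of each list the largest rise and fall between the shRNAs and any gene past the cutoffs, and the 5 profiles nearest to MYB. A marker gene and 1 of these profiles are not reported here. Genes named for the time comparison, the marker genes and the neighbours of MYB were named after their values were seen. Alternatives were quantile normalization, centring on the median, the percentile over probes detected on every array, normexp (offset 50, on the median spot signal) with and without quantile normalization, the authors' values, no filter, a filter on all 4 arrays, 1 probe per gene, time point or shRNA as a block, a 1.5-fold cutoff, the t-test of the methods and leaving out each array.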

Additional observations from a re-analysis of the deposited data

Results flagged for a closer look

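The MAX probe for NM_145113 went in opposite directions from 48 h to 96 h in the 2 shRNA groups, with a log2 difference of 0.12 with control shRNA and -0.03 with ALKBH3 shRNA. The difference between these was not tested, since each value comes from 1 pair of arrays.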

How the results depend on the processing

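The mean difference of MYB between the shRNAs was between -2.07 and -1.82 under every scaling and background correction tried. It ran from -2.47 to -1.61 when each array was left out, and a filter on probes cannot change it. The MYC difference kept its sign under all settings (0.02 to 0.37), and so did those of the 3 MAX probes. Leaving out an array turned the sign of the difference of MYBL1 (-0.30 to 0.71 and, for NM_001144755, -0.14 to 0.79), MYBL2 (-0.54 to 0.42) and MYCL1 (-0.36 to 0.062), and took the mitotic median from -0.33 to 0.42 (0 to 16 of 16 above 0), that of the MuvB and DREAM partners from -0.20 to 0.18 (3 to 11 of 15) and that of the genes that MYC activates from -0.12 to 0.15 (5 to 24 of 30), because the time points are then no longer balanced between the shRNAs. In the time comparison leaving out an array took MYB from -0.59 to 1.73, MAX NM_145113 from -0.031 to 0.12 and MAX NM_145114 from -0.024 to 0.25, and MAX NM_145113 was at -0.051 with normexp, -0.047 with normexp and quantile normalization and -0.047 with the authors' values. MYBL2 passed the 2-fold cutoff over time with normexp (1.06), normexp and quantile normalization (1.06) and the authors' values (1.09), and the MYBL1 probes did without ALKBH3 shRNA at 48 h (1.05 and 1.03).

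The number of probes called higher between the shRNAs, 206, was 76 with normexp, 78 with normexp and quantile normalization, 118 with the authors' values, 495 without a filter, 123 with the filter on all arrays, 60 with the methods' t-test and 595 at 1.5-fold. The number called lower, 54, was 27 and 26 with normexp without and with quantile normalization, 113 without a filter, 34 with 1 probe per gene, 25 with the methods' t-test and 292 at 1.5-fold. Over time the 76 probes called higher were 14 and 12 with normexp without and with quantile normalization, 22 with the authors' values, 750 without a filter, 27 with the filter on all arrays and 36 with 1 probe per gene, and the 155 called lower were 58 and 52 with normexp. Leaving out 1 array gave 232 to 418 higher and 52 to 134 lower between the shRNAs, and 76 to 209 higher and 169 to 367 lower over time. Between the shRNAs the calls higher were 418 without ALKBH3 shRNA at 96 h and 354 without control shRNA at 48 h, and the calls lower 134 without ALKBH3 shRNA at 48 h and 104 without control shRNA at 96 h. Over time the calls higher were 209 without ALKBH3 shRNA at 48 h and 157 without control shRNA at 96 h, and the calls lower 367 without control shRNA at 48 h and 249 without ALKBH3 shRNA at 96 h. The cause of the other moves was not tested. When time point was a replicate block, 257 probes were called higher and 60 lower by the 2-fold cutoff. The block cannot change a mean difference in this balanced design, so the MYB value of -2.04 was fixed in advance. The pairing of the arrays by time point comes from the labels and the shared slide.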
